A study of Mus musculus with 2 samples.

Results

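The 10 genes described here encode the constant regions of mouse immunoglobulins and the J chain: Ighm, Ighd, Igha, Ighg1, Ighg2b and Ighg3 for heavy chains, Igkc, Iglc1 and Iglc2 for light chains, and Jchain. They were taken by symbol from the 32285 features of the matrices, and each matched 1 feature. The study profiled dorsal meninges, the membranes that cover the brain, by single-cell RNA-seq to ask how a mild traumatic brain injury (TBI) alters the cells that live there. One library came from male C57BL/6 mice given a mild closed-skull injury, and the other from male C57BL/6 mice given a Sham procedure, in which they were anesthetized and placed under the impactor without being hit. The labels give the strain as C57BL/6 and the methods as C57BL/6J. Mice were 10 weeks old (one label field gives 10 to 12 weeks), tissue was taken 1 week after the procedure, and the region beneath the impact was left out of the dissection. Each library pooled 5 mice, so a pool cannot show variation between animals, and the 2 groups have 1 library each. Live singlets lacking DAPI were sorted, about 4000 per library were loaded on a 10x Chromium instrument, and the labels name a 3' kit that tags each captured RNA molecule with a unique molecular identifier (UMI).

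An antibody joins paired heavy and light chains, and the constant region of the heavy chain sets its class. Developing B cells first make the mu heavy chain of IgM together with a surrogate light chain built by Vpreb and Igll1, replace that surrogate with a kappa or lambda light chain, and as they mature add IgD by alternative processing of the same heavy-chain transcript. Activated cells can switch to IgG or IgA, and plasma cells secrete antibody in bulk, with the J chain linking IgM and IgA into larger forms. In mice most B cells are known to carry kappa rather than lambda light chains.

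The heavy-chain genes lie on chromosome 12 of GRCm38, all on the minus strand, and their order from the first to be transcribed is Ighm (chr12:113418558-113422730), Ighd (chr12:113406604-113416324), Ighg3 (chr12:113356224-113361232), Ighg1 (chr12:113325240-113330523), Ighg2b (chr12:113302965-113307933) and Igha (chr12:113254830-113260236). Igkc lies on the plus strand at chr6:70726435-70726966, within an intron of the non-coding gene Gm30211. The lambda genes are on the minus strand, Iglc1 at chr16:19061618-19062071 and Iglc2 at chr16:19198396-19200351, and Jchain is on the minus strand at chr5:88519809-88527891. A further lambda gene that is not among the 10, Iglc3 (chr16:19065230-19065681, minus strand), is needed to read the lambda counts.

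The lambda sequences are shown because their likeness decides which lambda counts can be told apart. Each line below gives the last 99 coding bases of a gene, from the GENCODE annotation of GRCm38, 5′ to 3′ on the coding strand, with capitals at the 32 positions where the 3 genes are not all the same.
Iglc1: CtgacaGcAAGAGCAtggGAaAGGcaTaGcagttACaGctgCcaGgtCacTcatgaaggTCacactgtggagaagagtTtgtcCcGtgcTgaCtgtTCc
Iglc2: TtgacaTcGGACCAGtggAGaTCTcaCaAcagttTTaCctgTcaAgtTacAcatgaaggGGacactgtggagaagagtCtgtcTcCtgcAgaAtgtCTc
Iglc3: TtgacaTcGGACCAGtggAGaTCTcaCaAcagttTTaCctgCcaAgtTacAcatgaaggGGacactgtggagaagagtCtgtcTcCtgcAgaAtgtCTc
Iglc1 (chr16:19061755-19061853) and Iglc2 (chr16:19198539-19198637) differed at 32 of the 99 bases, Iglc1 and Iglc3 at 31, and Iglc2 and Iglc3 (chr16:19065368-19065466) at 1. Of all 50-base stretches of the annotated transcripts, 43 of 562 in Iglc2 also occurred in Iglc3, whereas none of those in Iglc1, Igkc, Ighm, Ighd, Igha or Jchain occurred in another constant-region gene. Among the IgG genes, 4.15% of the stretches in Ighg2b, 1.58% in Ighg3 and 0.393% in Ighg1 were shared with another of them. The longest exact run shared by the compared transcripts of Iglc2 and Iglc3 was 79 bases, shorter than the transcript read that the methods describe. How reads of these near-identical genes were assigned was not tested. The split of UMIs between Iglc2 and Iglc3 is therefore treated as uncertain, and their sum with Iglc1 is used wherever lambda is set against kappa. Iglc2 also overlaps exon bases of the joining segment Iglj2 (38 bases, 6.21% of its exons), and Iglc3 those of the antisense gene 2010309G21Rik (93 bases, 20.6%), which is also a feature of the matrices. No source used here states whether the counting used strand, so Iglc3 UMIs are uncertain for this reason too.

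The matrices held 2699 Sham and 4349 TBI barcodes, of which 2043 and 3773 were kept, with medians of 2764 and 2663 UMIs per cell. Clusters were built without 393 immunoglobulin genes and named by their markers, so that every class below is "-like". The B-like cells numbered 466 in Sham (22.8% of cells) and 432 in TBI (11.4%). Cd79a, which encodes a signalling chain of the B cell receptor, had a UMI in 97.0% and 97.5% of them, against 1.52% and 1.32% of the other cells. Cd79a is among the markers that named these clusters, so its share describes them. The 2 libraries shared 14 barcodes among kept cells and 0 among B-like cells, and 2 Sham and 9 TBI B-like cells were predicted doublets. Levels are given as counts per 1000000 UMIs of the summed cells (CPM) and are not scaled to gene length, so values of different genes are shares of UMIs. All intervals are 95% and cover counting error only, and no test between Sham and TBI was possible with 1 library each.

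In B-like cells, 5 of the 10 genes were common and 5 were rare or undetected. Ighm, the heavy chain of IgM, had 3332 UMIs in Sham (2260 CPM, 2184 to 2338) and 2813 in TBI (2151 CPM, 2072 to 2232), and was found in 96.1% and 96.5% of cells. Ighd, the heavy chain of IgD, had 372 UMIs in Sham (252 CPM) and 261 in TBI (200 CPM), and was found in 41.2% and 32.9% of cells. IgM transcripts were thus near universal in both libraries and IgD transcripts were found in a minority.

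Among light chains, Igkc had 2383 UMIs in Sham (1616 CPM) and 1852 in TBI (1416 CPM), in 82.0% and 78.7% of cells. Iglc2 had 1926 UMIs (1306 CPM) and 1463 UMIs (1119 CPM), in 65.0% and 58.3% of cells. Iglc1 had 935 UMIs (634 CPM) and 615 UMIs (470 CPM), in 52.6% and 48.6% of cells. Both light-chain types were therefore found in most B-like cells of either library. Outside B-like cells the same light-chain genes were found in few cells: Igkc in 1.27% and 2.57%, Iglc2 in 0.634% and 0.898%, and Iglc1 in 0.190% and 0.389% (median depth 2526 and 2655 UMIs, against 3092 and 2706 in B-like cells). With every cell thinned to 1000 UMIs, which left out 47 Sham and 37 TBI B-like cells, the B-like shares with a UMI were 86.4% and 84.1% for Ighm, 21.7% and 15.7% for Ighd, and 67.5% and 67.1% for Igkc.

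The class-switched genes and Jchain had few or no UMIs. Igha, the heavy chain of IgA, had 9 UMIs in Sham and 10 in TBI B-like cells, in 1.72% (0.744 to 3.35) and 2.31% (1.12 to 4.22) of them. Ighg2b had 2 UMIs, in 1 Sham cell, and 1 UMI in TBI. Ighg1 and Ighg3 had 0 UMIs in B-like cells, which allows up to 0.644% of Sham and 0.694% of TBI cells to hold a UMI and sets no limit on cells that express these genes below detection. They had 0 in every other barcode of the matrices. The same was true of Ighg2c and Ighe, the constant regions of IgG2c and IgE, which are not among the 10. Jchain had 0 UMIs in Sham B-like cells and 4 in TBI.

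No B-like cell met the rule used here for a switched cell, and no kept cell met the rule for a cell rich in these genes. Cells outside B-like cells were not put to the switching rule. Of B-like cells with at least 2 heavy-chain constant-region UMIs, 0 of 443 in Sham and 0 of 401 in TBI had most of them from switched classes, which allows shares of up to 0.677% and 0.748%. A switched UMI was seen in 9 Sham and 10 TBI B-like cells, with at most 2 in a cell. The 10 genes reached at most 2.95% of the UMIs of a Sham cell and 3.09% of a TBI cell, with medians of 0.584% and 0.536% in B-like cells, and 0 of 2043 and 0 of 3773 cells reached 10%. No cluster reached the 3 plasma cell markers among its top 50 genes that a name required, the most being 2, in the immature B-like cluster.

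B-like cells were then reclustered, again without immunoglobulin genes, into 5 named stages. These are called cycling (18 Sham and 41 TBI cells), Rag precursor (77 and 91), immature (120 and 51), Myc-expressing (111 and 140) and mature follicular (139 and 98), each in the sense of resembling its markers. A further cluster of 1 Sham and 11 TBI cells, led by Tbc1d4, Lyz2 and Fcer1g, stayed unnamed. The Myc-expressing stage was led by Nfkbid, Wfdc21 and Gem and had 4 markers of its own and 3 of the immature stage among its top 50 genes, with none of its own in the top 10. The immature stage rested on 3 markers. The mix of stages differed between libraries, the most numerous being mature follicular in Sham and Myc-expressing in TBI.

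**Figure D1:**
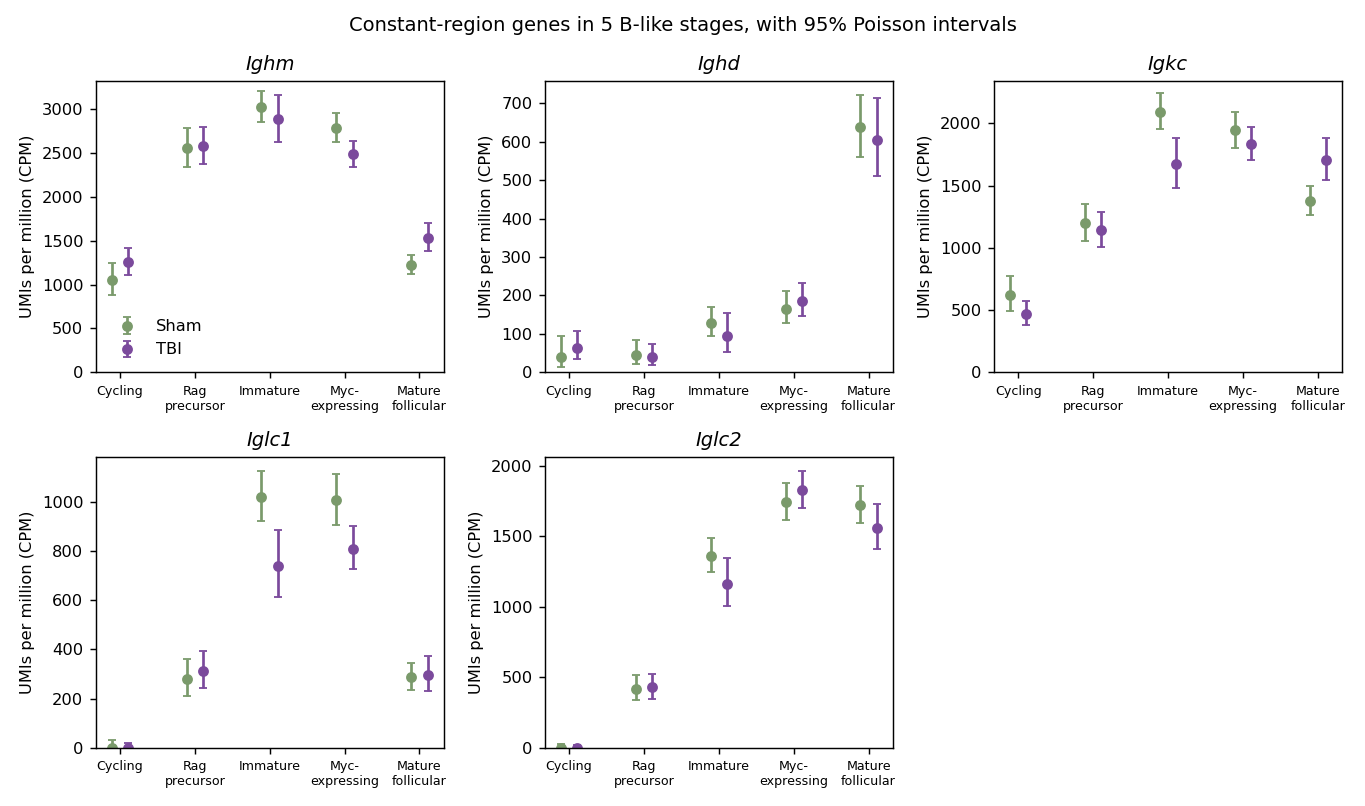
Levels in CPM (linear axis from 0) of Ighm, Ighd, Igkc, Iglc1 and Iglc2 in the summed cells of each B-like stage, Sham in green and TBI in purple, with 95% Poisson intervals that cover counting error only. Ighd was at 638 and 606 CPM in mature follicular cells and under 190 in the other stages, whereas Ighm was lower in mature follicular and cycling cells than in the stages between them.

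The plot of constant-region levels by stage shows that the IgM and IgD heavy chains parted in mature follicular cells. There Ighm was lower, and Ighd higher, than in Rag precursors. Ighm was at 1048 CPM in Sham and 1257 in TBI cycling cells, at 2560 and 2585 in Rag precursors, at 3027 and 2886 in immature cells, at 2788 and 2486 in Myc-expressing cells, and at 1222 and 1534 in mature follicular cells. Ordered by level, neither immature and Myc-expressing nor Myc-expressing and Rag precursor cells of Sham differed beyond counting error, whereas immature cells were above Rag precursors (log2 0.24, 0.09 to 0.39). Mature follicular and cycling cells did not differ beyond it in Sham and did in TBI. Ighm was found in 97.4% and 98.9% of Rag precursors and in 92.1% and 93.9% of mature follicular cells, so most cells of either stage held it.

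Ighd was at 40.3 and 62.8 CPM in cycling cells, 43.9 and 39.0 in Rag precursors, 127 and 93.3 in immature cells, 165 and 186 in Myc-expressing cells, and 638 and 606 in mature follicular cells. It was found in 75.5% of mature follicular cells in Sham and 70.4% in TBI, against 11.7% and 9.89% of Rag precursors, at medians of 2801 and 2368 UMIs per cell in the former and 2771 and 2395 in the latter. In the thinned cells, which leave out 18 and 13 of the former and 12 and 7 of the latter, these shares were 50.4% and 42.4% against 4.62% and 3.57%. Ighd is a leading gene of one of the B-like clusters built over all cells, but it was kept out of the genes that defined the stages.

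Between mature follicular cells and Rag precursors, 2 of the 5 genes with enough UMIs were at least 2-fold higher in both libraries and 0 were at least 2-fold lower. Over the 3385 genes with at least 20 UMIs in these stages of each library, 5.64% were higher and 10.8% lower by this size. The median log2 ratio of the 5 genes was that of Igkc, 0.20 in Sham and 0.58 in TBI. Ighd was 13.8-fold higher in Sham (log2 3.79, 2.91 to 5.01) and 14.8-fold higher in TBI (3.89, 2.99 to 5.12). With 9 UMIs in Rag precursors of either library, Ighd reached the required 20 through mature follicular cells (247 and 145 UMIs), where it was higher. The count of 2 of 5 is therefore partly set by that limit. Iglc2 was 4.08-fold higher in Sham (2.03, 1.71 to 2.38) and 3.62-fold in TBI (1.86, 1.54 to 2.20). Ighm was lower in mature cells, with log2 ratios of -1.07 (-1.25 to -0.88) and -0.75 (-0.94 to -0.56). Igkc differed beyond counting error in TBI (0.58, 0.36 to 0.81) and not in Sham (0.20, -0.02 to 0.43), and Iglc1 in neither (0.04 and -0.07). Whether these ratios differ between the libraries was not tested. When stages were instead set by single marker genes, Rag1, Rag2, Vpreb1 or Igll1 against Fcer2a, the Ighm ratio was -0.37 in Sham and -0.02 in TBI, that of Iglc1 was 0.58 and 1.86, and that of Ighd was 2.74 and 2.88. That of Iglc2 was 2.30 and 3.56 and that of Igkc 0.61 and 1.12, so that Igkc passed 2-fold in TBI by these gates. The gates took B-like cells of any stage, cycling cells included, and so compare other groups of cells than the clusters do. Of B-like cells with Vpreb1 or Igll1, 10 of 11 in Sham and 21 of 26 in TBI were cycling cells.

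The share of Ighd among Ighm and Ighd UMIs put both genes on 1 scale within each stage. It was 1.69% in Sham and 1.49% in TBI Rag precursors, 3.70% and 4.76% in cycling cells, 4.04% and 3.13% in immature cells, 5.60% and 6.96% in Myc-expressing cells, and 34.3% (30.8 to 37.9) and 28.3% (24.5 to 32.4) in mature follicular cells. Nearly every cell with an Ighd UMI also had Ighm: 185 of 192 in Sham and 139 of 142 in TBI. Zfp318, which is known to promote the processing that yields IgD, had 87 UMIs in Sham and 62 in TBI B-like cells, in 16.7% and 11.8% of them.

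Light-chain genes followed 2 patterns. Igkc was already present in cycling cells, at 621 CPM in Sham and 469 in TBI, and was at 1195 and 1139 in Rag precursors, 2095 and 1673 in immature, 1943 and 1832 in Myc-expressing and 1375 and 1705 in mature follicular cells. Iglc1 and Iglc2 had 0 UMIs in the 18 Sham and 41 TBI cycling cells, where a count of 0 allows up to 24.2 and 14.5 CPM. Cycling cells thus held kappa but no detected lambda constant-region transcripts. Kappa variable segments (Igkv) had 37 and 87 UMIs there, beside 77 and 97 of Igkc. In Rag precursors they had 960 and 1085, beside 245 and 263 of Igkc.

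Iglc2 was at 419 and 429 CPM in Rag precursors, 1360 and 1163 in immature, 1741 and 1829 in Myc-expressing and 1718 and 1559 in mature follicular cells. Iglc1 was at 278 and 312 CPM in Rag precursors, 1020 and 740 in immature, 1006 and 809 in Myc-expressing and 287 and 297 in mature follicular cells. By these clusters both lambda genes were higher in immature cells than in Rag precursors, and in mature follicular cells the difference exceeded counting error for Iglc2 but not for Iglc1. Iglc1 made up 30.2% and 24.3% of the UMIs of Iglc1, Iglc2 and Iglc3 in immature cells, 23.7% and 20.7% in Myc-expressing cells and 8.20% (6.79 to 9.79) and 9.16% (7.22 to 11.4) in mature follicular cells. This share does not depend on how counted reads were split between Iglc2 and Iglc3. It does depend on whether reads matching both genes were counted and on the uncertain Iglc3 UMIs, and neither was tested.

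The surrogate light chain marked the cycling stage. Vpreb1 was at 1523 CPM in Sham and 1334 in TBI cycling cells and Igll1 at 1410 and 1644, and both had at most 13 UMIs in any other stage. These genes lead that cluster, so their levels describe it. Of the cells with a UMI of either gene, 6 of 11 in Sham and 10 of 26 in TBI also had a constant light-chain UMI. Ighm and a light chain were found together in 9 of 18 and 19 of 41 cycling cells, in 64 of 77 and 84 of 91 Rag precursors, and in 418 of 466 and 389 of 432 B-like cells. Cd79a and Cd79b, which anchor and signal for the receptor, were in 95.7% and 98.0%, and in 92.1% and 94.9%, of mature follicular cells.

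**Figure D2:**
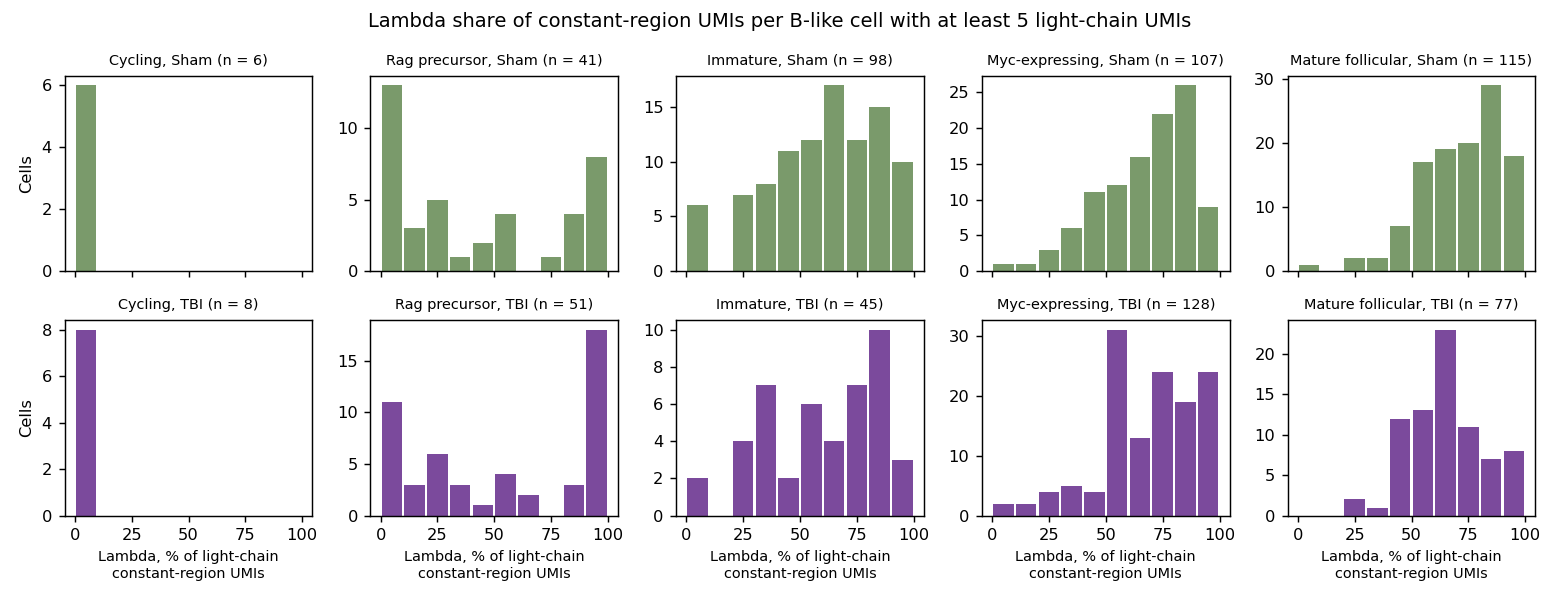
Number of B-like cells (vertical axes, scaled per panel) by the share of their constant light-chain UMIs that came from Iglc1, Iglc2 and Iglc3 (horizontal axes, %), for each stage in Sham (green, top) and TBI (purple, bottom), among cells with at least 5 such UMIs. All 6 Sham and 8 TBI cycling cells were under 10%, Rag precursors lay toward both ends, and most mature follicular cells lay above 50%.

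Kappa and lambda constant-region UMIs were mixed within cells. Of B-like cells with any constant light-chain UMI, 335 of 432 in Sham (77.5%) and 283 of 397 in TBI (71.3%) had both. Among cells with at least 5 such UMIs, lambda supplied more than 50% in 258 of 367 Sham cells (70.3%, 65.3 to 74.9) and 226 of 317 TBI cells (71.3%, 66.0 to 76.2). The histogram of the lambda share per cell shows that 298 Sham (81.2%) and 246 TBI cells (77.6%) fell between 10% and 90%, with 27 and 23 below and 42 and 48 above.

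Rag precursors stood apart from the later stages in how cells were spread. Of 41 Sham and 51 TBI Rag precursors with enough UMIs, 21 (51.2%) and 22 (43.1%) fell between 10% and 90%, against 98 of 115 (85.2%) and 69 of 77 (89.6%) mature follicular cells. Rag precursors also held fewer constant light-chain UMIs, 502 and 565 in all 77 and 91 cells, against 1886 and 1183 in 139 and 98 mature follicular cells. With few UMIs a cell falls more easily at either end, and cells matched for these UMIs were not compared. The share of cells with mostly lambda was 39.0% (24.2 to 55.5) and 51.0% (36.6 to 65.2) in Rag precursors, 66.3% and 62.2% in immature, 75.7% and 82.8% in Myc-expressing, and 83.5% (75.4 to 89.7) and 76.6% (65.6 to 85.5) in mature follicular cells. Requiring lambda to hold at least 80% of the UMIs gave 32.4% and 29.3% of all B-like cells, and leaving out Iglc3 gave 53.8% and 53.0%.

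The variable segments joined to these constant regions gave another picture. They were examined after the constant-region values had been seen. Lambda segments (Iglv, 3 features) made up 15.5% (15.0 to 16.0) of light-chain V-segment UMIs in Sham B-like cells and 19.0% (18.4 to 19.6) in TBI, the rest being kappa segments (Igkv, 160 features), whereas lambda made up 65.4% and 64.1% of constant light-chain UMIs. Of the cells with Igkv and no Iglv UMI, 232 of 272 in Sham and 209 of 254 in TBI had a UMI of a lambda constant region. Of the cells with Iglv and no Igkv UMI, 3 of 20 and 5 of 23 had an Igkc UMI. Both Igkv and Iglv were found in 138 of the 430 Sham and 111 of the 388 TBI cells with a V-segment UMI. Lambda constant-region transcripts were thus found in most cells whose detected V-segment UMIs were all kappa. Igkc was found in fewer of the cells with Iglv alone, which were few. Lambda had fewer V-segment UMIs per constant-region UMI than kappa (0.765 and 0.946 against 7.88 and 7.20). A cell without an Iglv UMI may therefore still hold such transcripts, and the part of unequal detection was not tested.

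**Figure D3:**
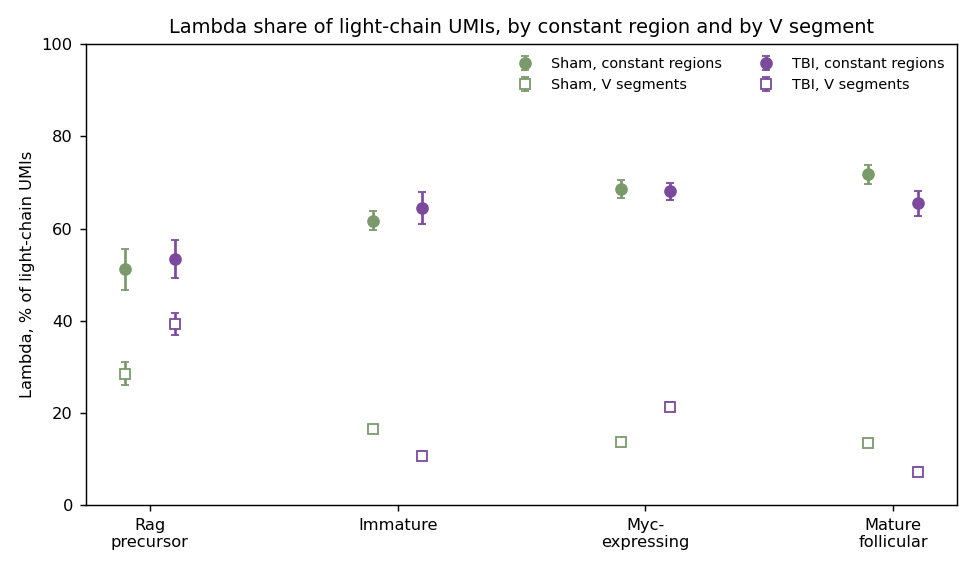
Lambda share (%) of light-chain UMIs in the summed cells of 4 B-like stages, from constant regions (filled circles) and from V segments (open squares), Sham in green and TBI in purple, with 95% binomial intervals that cover counting error only and are hidden behind some symbols. Constant-region shares lay at 51.2% or more in every stage, and V-segment shares at 39.3% or less, lowest in mature follicular cells of TBI at 7.25%.

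The plot of lambda share by constant region and by V segment shows that both shares were closest in Rag precursors. There lambda held 51.2% and 53.5% of constant light-chain UMIs and 28.5% and 39.3% of V-segment UMIs. In mature follicular cells the values were 71.8% and 65.5% against 13.6% and 7.25%. Kappa had 7.88 V-segment UMIs per constant-region UMI in Sham and 7.20 in TBI, lambda 0.765 and 0.946, and the heavy chain 1.75 and 1.67. A 3' kit, as named in the labels, reads from the end of the transcript that holds the constant region, yet kappa and the heavy chain had more V-segment than constant-region UMIs. Where reads lay within transcripts is not recorded in the matrices, and its part in these ratios was not tested. How far V-segment and constant-region UMIs stand for the same transcripts is therefore uncertain, and with it the comparison of their shares. The joining segments Igkj, Iglj and Ighj had 0 UMIs.

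**Figure D4:**
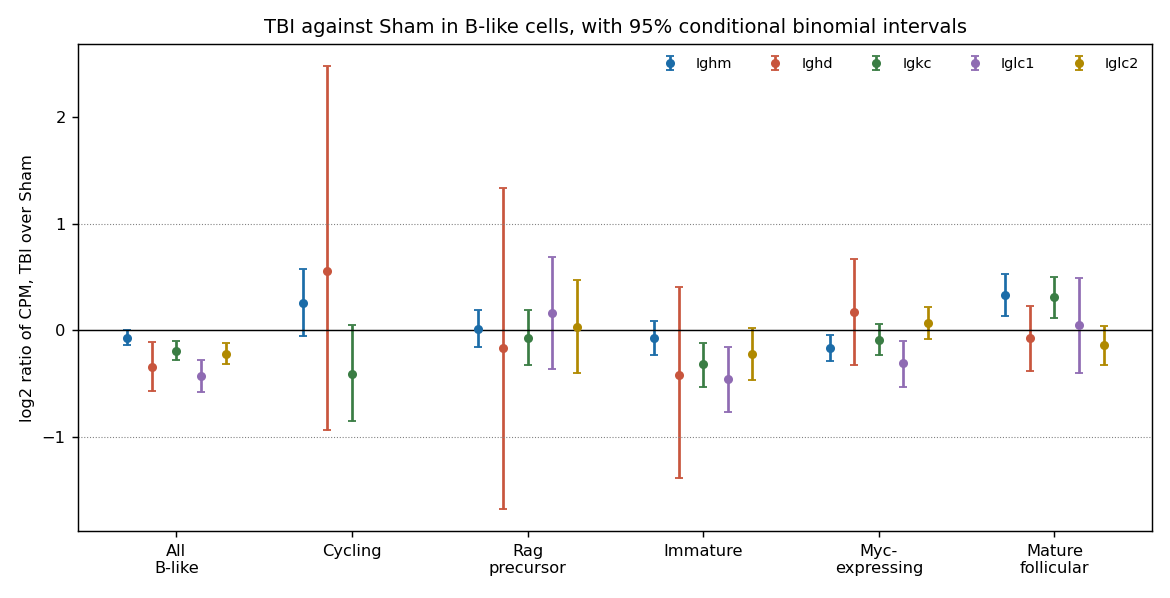
Log2 ratio of CPM in TBI over Sham (vertical axis) for Ighm, Ighd, Igkc, Iglc1 and Iglc2 in all B-like cells and in each stage, with 95% conditional binomial intervals that cover counting error only. Dotted lines mark 2-fold either way. No gene reached 2-fold in all B-like cells, and lambda genes have no point in cycling cells because both libraries had 0 UMIs.

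Between TBI and Sham, B-like cells as a whole differed by less than 2-fold in all 5 genes with at least 20 UMIs, with 0 higher and 0 lower. Over the 8659 genes measured in these cells, 3.40% were at least 2-fold higher in TBI and 1.51% at least 2-fold lower, and the median log2 ratio was -0.22 for the 5 genes and 0.05 for all. The ratio was -0.07 (-0.14 to 0.00) for Ighm, -0.34 (-0.57 to -0.11) for Ighd, -0.19 (-0.28 to -0.10) for Igkc, -0.43 (-0.58 to -0.28) for Iglc1 and -0.22 (-0.32 to -0.12) for Iglc2. All 5 values lay below 0, and the intervals of 4 excluded it. When the stages of both libraries were weighted by the Sham mix, an alternative chosen after seeing the data, the ratios were -0.01, -0.06, -0.06, -0.29 and -0.08 in the same order.

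Within stages the direction was not shared, as the plot of TBI over Sham shows. In mature follicular cells Ighm was 1.26-fold (log2 0.33, 0.13 to 0.53) and Igkc 1.24-fold (0.31, 0.12 to 0.50) higher in TBI, whereas Ighd (-0.07, -0.38 to 0.23) and Iglc2 (-0.14, -0.33 to 0.04) did not differ beyond counting error. In immature cells Igkc was lower in TBI (-0.32, -0.53 to -0.12), as was Iglc1 (-0.46, -0.77 to -0.16). In Myc-expressing cells Ighm (-0.17, -0.29 to -0.04) and Iglc1 (-0.31, -0.53 to -0.10) were lower. In Rag precursors all 5 intervals included 0, with ratios from -0.17 to 0.16, and that of Ighd included 0 in every stage. Whether such differences exceed those between pools of mice cannot be told from 1 library each.

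The partners of the receptor were compared in the same way. Their median log2 ratio was -0.01. Of these 6 genes, 1 was at least 2-fold higher in TBI and 0 lower, against 3.40% and 1.51% of 8659 genes. That gene was Igll1, with 175 UMIs in Sham and 353 in TBI (1.18, 0.92 to 1.46), of which 175 and 340 came from the 18 and 41 cycling cells, where it was at 1410 and 1644 CPM. Vpreb1 was at 0.74 (0.47 to 1.02), Cd79a at -0.25 (-0.29 to -0.20) and Cd79b at -0.09 (-0.15 to -0.03).

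Of the 13 secretion genes, 10 had enough UMIs, with a median of 0.23. Of these 10, 0 were 2-fold higher or lower, against 3.40% and 1.51% of all genes measured. Mzb1, a chaperone of immunoglobulin assembly, had 643 UMIs in Sham and 581 in TBI (0.03, -0.14 to 0.19) and was found in 55.6% and 53.7% of B-like cells. Xbp1, a regulator of the secretory pathway, was at 0.11 (-0.20 to 0.43), with 117 and 127 CPM in B-like cells and 152 and 165 CPM outside them. Pou2af1, a coactivator of immunoglobulin genes, was at 0.30 (0.13 to 0.48). Of the plasma cell genes, Prdm1 and Tnfrsf17 had 2 and 0 UMIs in Sham B-like cells and 0 and 0 in TBI. Outside B-like cells Prdm1 was at 10.2 CPM in Sham and 9.74 in TBI, and Tnfrsf17 at 3.60 and 5.38. The other plasma cell markers of the list were found in 1.50% (Fkbp11) to 55.6% (Mzb1) of Sham B-like cells. In TBI the range was 1.16% to 53.7%, and Sdc1 was found in 4.29% and 4.63%.

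Ung, a DNA repair glycosylase that also acts in class switching, was sparse, with 16 UMIs in Sham B-like cells and 8 in TBI. Its log2 ratio of -0.78 (-2.26 to 0.48) and that of Zfp318, -0.31 (-0.81 to 0.17), had intervals that included 0.

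**Figure D5:**
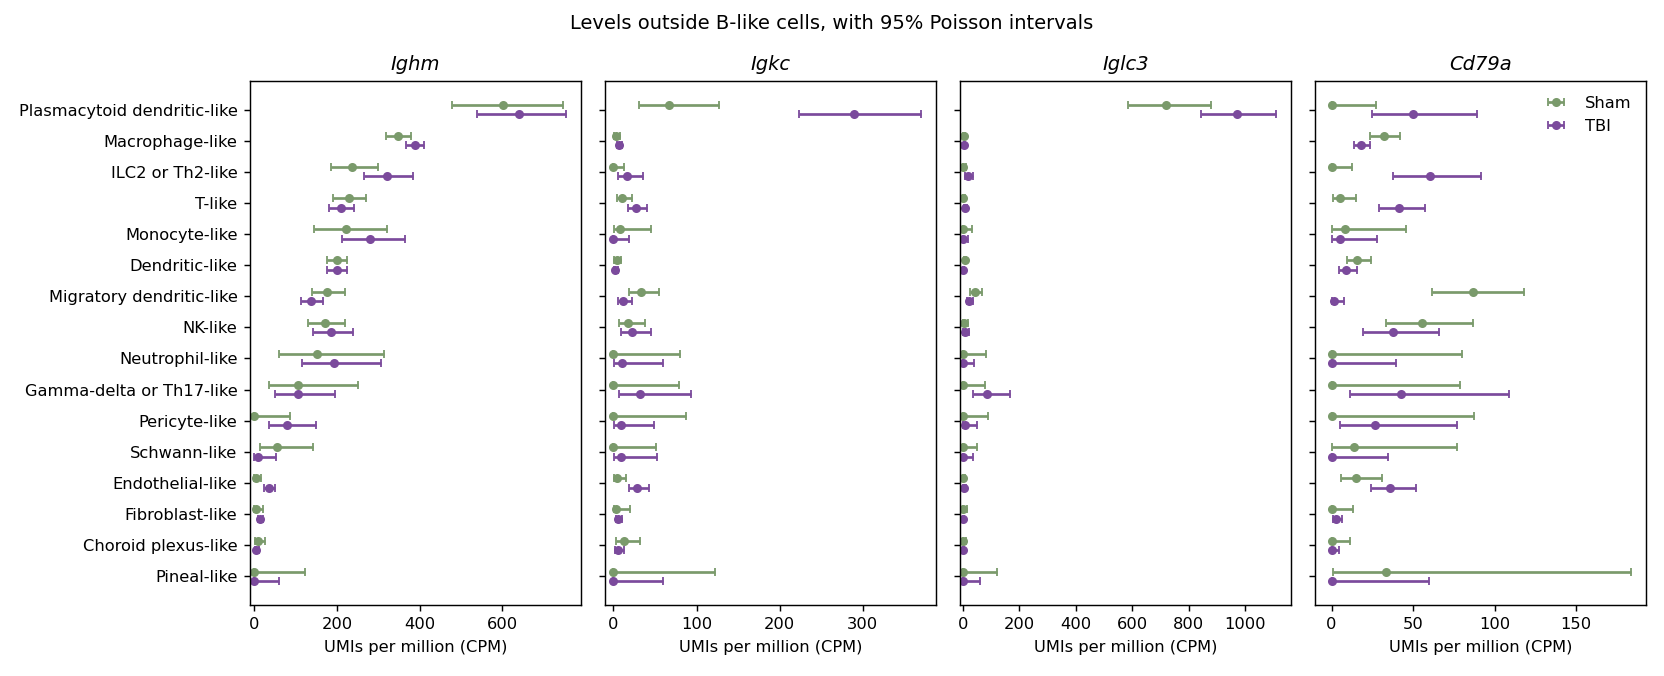
Levels in CPM (linear axes) of Ighm, Igkc, Iglc3 and Cd79a in the summed cells of each named class outside B-like cells, Sham in green and TBI in purple, with 95% Poisson intervals that cover counting error only. Unnamed clusters are not shown. Ighm was above 100 CPM in every immune class shown, while Igkc was under 35 CPM in all classes but plasmacytoid dendritic-like cells, where Iglc3 reached 720 and 969 CPM.

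Outside B-like cells, Ighm stood out from the other 9 genes. It was found in 31.4% of the 1577 Sham cells and 29.7% of the 3341 TBI cells, at 200 CPM (190 to 212) and 194 CPM (187 to 202). In the thinned cells, which leave out 341 and 502, it was found in 173 of 1236 and 369 of 2839. Ighd was at 4.69 and 3.96 CPM, in 1.40% and 1.05% of these cells. The plot of levels outside B-like cells shows that Ighm was not spread evenly over classes.

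Plasmacytoid dendritic-like cells, specialists in interferon production, had the highest level, 601 CPM in Sham and 639 in TBI, followed by macrophage-like cells at 348 (319 to 379) and 389 (368 to 410). Lower levels were found in the group 2 innate lymphoid or Th2-like cells (237 and 321), T-like cells (228 and 209), monocyte-like cells (221 and 281), dendritic-like cells (199 and 199) and NK-like cells (170 and 186). Gamma-delta or Th17-like cells were at 107 and 106. When all classes of a library, those not named here included, were ordered by level, neighbours from macrophage-like to gamma-delta or Th17-like cells did not differ beyond counting error, but classes farther apart did: the intervals of NK-like cells, 129 to 219 and 141 to 240, lay below those of macrophage-like cells. Endothelial-like cells had 4.27 and 34.9 CPM and fibroblast-like cells 3.61 and 13.8.

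In macrophage-like cells Ighm was found in 167 of 275 Sham cells (60.7%, 54.7 to 66.5) and 467 of 661 TBI cells (70.7%, 67.0 to 74.1), against 0.833% and 2.03% of endothelial-like cells, at medians of 5007 and 4826 UMIs per cell against 1818 and 1820. In cells thinned to 1000 UMIs, with 28 and 42 macrophage-like and 52 and 73 endothelial-like cells left out, the shares were 28.3% and 31.3% against 0% and 0.935%. Of these macrophage-like cells, 86 in Sham and 211 in TBI had at least 3 Ighm UMIs, with a maximum of 12 and 17. The TBI over Sham ratio was 0.16 (0.01 to 0.31). Of the 4 genes of the set with at least 20 UMIs in macrophage-like cells, 1 (Igkc) was at least 2-fold higher and 1 (Ighd) at least 2-fold lower in TBI, against 2.23% and 1.44% of 9716 genes, and both intervals included 0. Igkc, with 5 UMIs in Sham and 25 in TBI, passed that limit through TBI.

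Few of these cells held transcripts of the other antibody genes. Macrophage-like cells had 107 Ighm UMIs per Igkc UMI in Sham and 53.8 in TBI, and all cells outside B-like 23.7 and 12.1, against 1.40 and 1.52 in B-like cells. The share of Ighm in Ighm and light-chain UMIs had intervals of 92.9% to 96.7% and 94.6% to 96.8% in macrophage-like cells, against 31.7% to 33.5% and 34.3% to 36.4% in B-like cells. A heavy-chain V segment was found in 3 of the 167 Sham and 7 of the 467 TBI macrophage-like cells with Ighm, and a light chain in 4 and 13. In B-like cells with Ighm, a V segment was found in 93.8% and 93.5%.

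Of the macrophage-like cells with Ighm, 28.7% in Sham and 31.0% in TBI had a UMI of Cd79a, Cd79b or Ms4a1, against 14.8% and 18.0% of those without. The cells with and without Ighm were not matched for depth, which raises detection of any gene. In all macrophage-like cells Cd79b had 114 and 285 UMIs and Cd79a 49 and 63. Over all cells outside B-like, leaving out every barcode with a UMI of those 3 genes gave Ighm levels of 175 and 160 CPM.

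Plasmacytoid dendritic-like cells, 19 in Sham and 37 in TBI, differed from the other classes in their light chains. Iglc3, the lambda gene close to Iglc2 and overlapped by an antisense gene, was at 720 CPM (584 to 878) and 969 CPM (844 to 1108), in 68.4% and 78.4% of cells, against 1113 and 937 CPM in B-like cells. Iglc1 had 0 UMIs in both libraries, Iglc2 had 0 in Sham and 15 in TBI, and Iglc3 made up 100% (96.3 to 100) and 93.4% (89.4 to 96.3) of the UMIs of the 3 genes, against 36.5% and 37.1% in B-like cells. Igkc was at 66.8 and 290 CPM, with 9 UMIs in 2 Sham cells and 64 UMIs in 9 TBI cells. Iglv segments had 2 and 4 UMIs and Ighv segments 0 and 29, the latter in 2 cells. Cd79a was found in 0 of 19 and 2 of 37 of these cells, whereas Cd79b was at 89.0 and 131 CPM, against 3684 and 3463 in B-like cells. In TBI a UMI of Cd79a, Cd79b or Ms4a1 was found in 17 of the 34 cells with Ighm and in all 3 without it.

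Between TBI and Sham, all cells outside B-like had 2 of 7 measured genes at least 2-fold higher and 0 lower, against 8.10% of 14421 genes higher and 1.05% lower. Igha was one, with 5 UMIs in Sham and 30 in TBI (log2 1.49, 0.22 to 3.33), and Jchain the other, with 0 and 22. Both reached the required 20 UMIs through TBI, the library where they were higher. The 2 of 7 is therefore set largely by that limit and is not evidence of a difference. Igkc had 54 and 202 UMIs (0.91, 0.48 to 1.38), or 8.45 and 16.0 CPM. Without the 5 barcodes of each library with the most Igkc UMIs its levels were 3.94 and 11.0 CPM. With every kept barcode included, Ighm did not differ beyond counting error (-0.05, -0.14 to 0.05).

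The cells with Jchain were scattered, whereas Igha was at a higher level in B-like cells than outside them. Over all kept cells Jchain had 0 UMIs in Sham, which allows up to 0.381 CPM, and 26 in TBI (1.87 CPM, 1.22 to 2.73). The TBI level was 4.89-fold that of a floor of 3 counts in the Sham library, before counting error in TBI. The interval of the log2 ratio began at 1.89 and had no upper bound. The 26 UMIs lay in 26 cells of 16 classes, 1 each, of which 4 cells were B-like and at most 4 belonged to any class. Igha had 14 UMIs in 13 Sham cells and 40 in 39 TBI cells (0.66, -0.22 to 1.68), with at most 2 in a cell. Its UMIs were spread over 6 classes in Sham and 16 in TBI, and 8 of the Sham and 10 of the TBI cells were B-like. Igha was at 6.10 and 7.65 CPM in B-like cells, against 0.782 and 2.37 CPM outside them. Among barcodes the limits left out, Jchain had 1 UMI in Sham and 4 in TBI, and no barcode of either library held more than 1.

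Endothelial-like cells had more UMIs of several of these genes in TBI. Ighm had 2 UMIs in Sham and 29 in TBI (2.73, 1.05 to 6.14), Igkc 2 and 24 (2.47, 0.75 to 5.88) and Iglc2 0 and 10. Those UMIs lay in few cells, since Ighm was in 8 and Igkc in 9 of the 394 TBI cells, with up to 9 and 13 in a cell. Cd79a had 7 and 30 UMIs there, 24 of the 30 in 1 cell. The part of doublets with B cells in these values was not tested.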

How the data were processed

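The authors deposited unfiltered and unscaled UMI counts of each gene in each barcode for 1 Sham and 1 TBI library, made with Cell Ranger on mm10 (GRCm38). The submitters' processing notes list Cell Ranger 2.1.1, Seurat 3.9.9 and DESeq2 1.30.0, the matrix headers name 3.1.0, and the methods name a further Cell Ranger version. The methods state the read lengths, whereas the gene annotation behind the counts could not be established. More barcodes were found in the files than the study states as its starting cells, and its limits left slightly fewer cells here than it states.

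Cells with 150 to 5000 genes, at most 20% mitochondrial and at most 5% hemoglobin UMIs were kept. Cells of both libraries were clustered jointly, without correction between them (2000 variable genes without immunoglobulin genes, 20 principal components, 20 neighbours, Leiden resolution 0.8), and a cluster was named where 3 or more of its top 50 genes were markers of a class. Classes were rebuilt here and may differ from those of the study. A cluster with a median depth under 0.333333 of its samples' and no marker in its top 10 genes stayed unnamed. Doublets were predicted by simulation and left in.

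Counts were summed per library and class, with 0.5 added for ratios. Intervals are exact (Clopper-Pearson for shares, Poisson for sums, conditional binomial for ratios). A count of 0 was read as allowing up to 3. With 1 library per group there is no replicate and no test. The calculation of ratios and their intervals was checked on simulated counts with known ratios, which is no test of these data. Positions and lambda sequences came from GENCODE on GRCm38.

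Named genes are the 10 members, Ighg2c, Ighe, Iglc3 and Iglc4, the lists for receptor partners and secretion, Ung, Zfp318, and the 3 genes that resemble each common member most. Members and lists were chosen with earlier results of these data known. V segments, Gm30211, cluster-leading genes and the weighting by the Sham stage mix were added after values were seen, as was the set of B cell genes whose barcodes were left out. Some planned items are not reported here. Alternatives changed the variable genes, the resolution (0.4 and 1.6), doublets, limits on genes and hemoglobin, scaling, gates for stages and thresholds for shares. Python 3.11.15, NumPy 2.4.6, SciPy 1.17.1, pandas 2.3.3, scikit-learn 1.9.0, igraph 0.11.9 and leidenalg 0.10.2 were used.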

Additional observations from a re-analysis of the deposited data

Results flagged for a closer look

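Of the 10 genes, Ighm was found in barcodes that the lower limit on genes left out at a higher level in TBI than in Sham. The 265 such TBI barcodes held 5 Ighm UMIs (16.3 CPM) and the 319 such Sham barcodes 1 (1.80 CPM), with a log2 ratio of 2.74 (0.03 to 8.75). It is named because these barcodes enter no comparison, and with so few UMIs it carries no further reading. Igkc had 7 and 5 UMIs in the same barcodes (1.31, -0.52 to 3.35).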

How the results depend on the processing

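Of 444 values computed under alternatives, 369 stayed within the counting interval of the main value or, for counts of genes or barcodes, within a fixed ratio of it. The other 75 moved by more, and 0 of the log2 ratios at least 2-fold apart changed sign. Ighm outside B-like cells was at 200 CPM in Sham and 194 in TBI, at 181 in Sham without the hemoglobin limit, and at 175 and 160 without barcodes that had a UMI of Cd79a, Cd79b or Ms4a1, a set chosen after seeing the data. The share of cells with mostly lambda was 32.4% and 29.3% with lambda at 80% or more, and 53.8% and 53.0% without Iglc3, each by construction of the threshold or gene set. Among cells with at least 10 light-chain UMIs it was 76.6% and 77.1%, against 70.3% and 71.3% with at least 5. That limit changes only which cells are counted, and the cause of the shift was not tested. The log2 ratio of TBI over Sham in B-like cells ranged over 11 alternatives from -0.12 to -0.01 for Ighm, -0.54 to -0.06 for Ighd, -0.21 to -0.06 for Igkc, -0.44 to -0.29 for Iglc1 and -0.24 to -0.08 for Iglc2. That of mature follicular cells over Rag precursors ranged over 8 alternatives from 2.74 to 3.80 in Sham and 2.88 to 3.89 in TBI for Ighd, and from -1.10 to -0.37 and -0.78 to -0.02 for Ighm, with the values nearest to 0 from single-gene gates. In TBI it ranged from -0.08 to 1.86 for Iglc1, 1.86 to 3.56 for Iglc2 and 0.58 to 1.12 for Igkc, and in Sham from 0.04 to 0.58, 1.91 to 2.53 and 0.20 to 0.61. The highest TBI values came with those gates, which take in cycling cells and so compare other groups of cells. The cause was not tested. Counts of 0 switched B-like cells and 0 cells rich in these genes held under every alternative run. For the stricter switching rules and the limits of 5% and 20% of UMIs, the main values had fixed this result in advance. With 1 pooled library per group no library can be left out, differences between animals are not measured, and the lowest counts, those of Igha, Jchain and Ighg2b, set only wide bounds. No paired analysis was possible because each group has 1 library and no test was made.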

Other observations

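Genes other than the 393 immunoglobulin genes whose levels went with those of each common gene were found over 40 sums of a class in a library, on log2 of CPM with 1 added. For Ighm they were Arhgap15 (r = 0.93), Cd37 (0.91) and Fermt3 (0.91), genes of leukocytes at large. For Ighd they were Fcmr (0.84), which encodes a receptor for IgM, with Cd79a (0.82) and Cd79b (0.82). For Igkc they were Ly6d (0.87), Gm30211 (0.86), whose intron holds it, and Fam129c (0.85). For Iglc1 they were Pou2af1, Pax5 and Klhl14 (0.93 each), and for Iglc2 Fcmr (0.93), Ly6d (0.91) and Cd79a (0.87). These sums share their libraries, and the values are descriptions without a test.

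Gm30211 had 1251 UMIs in 243 Sham B-like cells and 997 in TBI, and 0 and 1 in macrophage-like cells. Among the barcodes with more than 5% hemoglobin UMIs, Iglc2 had 79 UMIs in Sham and 0 in TBI and Ighm 87 and 45. These barcodes entered the values above only under the alternative without the hemoglobin limit.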
